A study of Homo sapiens with 24 samples.

Results

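TNFAIP6, HAPLN3, SEMA7A and TMPRSS3 are 4 genes whose mRNA was lower in both of the knockdowns (KDs) made in L1236 cells, a long-established line of B cell origin from Hodgkin lymphoma. The members were chosen by their measured values, namely a fall in each KD against its own control siRNA, so the falls are given below as a description and no test is read from them. Each gene was measured by 1 transcript cluster, the set of array probes that stands for one transcript locus, whose annotation names that gene alone. These are 4 of the 33297 clusters on the array, of which 19460 carried 1 gene symbol, and all 4 passed the filter on low values in both experiments.

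The data came from 24 arrays in 2 experiments. In experiment 1, 6 arrays of p50/RelA KD (siRNA to NFKB1 at 1 µM for 3 days and to RELA at 500 nM for 2 days) were set against 6 arrays of non-targeting siRNA (control 1). In experiment 2, 6 arrays of p52/RelB KD (siRNA to RELB at 1 µM for 3 days and to NFKB2 at 500 nM for 2 days) were set against 6 arrays of non-targeting siRNA (control 2). Each arm held 2 siRNA sequences in each of 3 replicates, and every culture was kept in low serum with the siRNA and collected 1 day after the return to normal serum. The dose of the non-targeting siRNA was not given in the sources used here. All arms came from this single cell line, in which NF-κB is constitutively active. Because RNA was taken from whole cultures, fewer cells of a type and less RNA per cell cannot be told apart.

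NF-κB is a family of transcription factors that act as dimers. The canonical pathway releases dimers of p50 and RelA, whereas the non-canonical pathway processes p100, the product of NFKB2, to p52 and acts chiefly through p52 and RelB. TNFAIP6 encodes TSG-6, a secreted protein induced by TNF and IL-1 that binds the matrix polysaccharide hyaluronan through a Link module and transfers heavy chains of inter-α-inhibitor onto it. HAPLN3 encodes a link protein of the family that fastens proteoglycans to hyaluronan. SEMA7A encodes a semaphorin held in the membrane by a GPI anchor, which signals through the plexin PLXNC1 and the integrin made of the ITGA1 and ITGB1 chains. TMPRSS3 encodes a serine protease spanning the membrane, in which mutations cause a hereditary deafness.

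The siRNAs that define the KD arms had these sequences, shown because both sequences of a target enter every value below and were also compared with each other.
NFKB1 siRNA, first listed: ccaaaguauaaagauauua
NFKB1 siRNA, second listed: ggcucauguuuacagcuuu
RELA siRNA, first listed: cuuccaaguuccuauagaa
RELA siRNA, second listed: ggauugaggagaaacguaa
NFKB2 siRNA, first listed: ucauugagcagauagucua
NFKB2 siRNA, second listed: cugucaagaucuguaacua
RELB siRNA, first listed: guaggauucggaaaagauu
RELB siRNA, second listed: uggagaucaucgacgagua
Which of these was called sequence 1 on the arrays was not given in the sources used here.

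The promoters of the 4 genes are shown because the siRNAs were aimed at transcription factors and the members fell together. Each is the 250 bases before the start site in RefSeq on assembly GRCh38.p14, written 5′ to 3′ in the direction of the gene, with matches to an NF-κB motif in capitals.
TNFAIP6, chr2:151357342-151357591, plus strand: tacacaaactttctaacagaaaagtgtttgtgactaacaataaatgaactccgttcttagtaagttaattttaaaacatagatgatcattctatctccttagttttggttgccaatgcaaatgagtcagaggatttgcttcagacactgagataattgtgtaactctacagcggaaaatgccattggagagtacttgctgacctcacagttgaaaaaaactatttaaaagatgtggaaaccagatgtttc
HAPLN3, chr15:88895545-88895794, minus strand: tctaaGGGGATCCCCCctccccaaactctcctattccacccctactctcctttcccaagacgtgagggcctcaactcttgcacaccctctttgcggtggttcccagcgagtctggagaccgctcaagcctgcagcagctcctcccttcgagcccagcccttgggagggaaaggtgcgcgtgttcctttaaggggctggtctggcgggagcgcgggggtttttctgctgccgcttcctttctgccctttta
SEMA7A, chr15:74433959-74434208, minus strand: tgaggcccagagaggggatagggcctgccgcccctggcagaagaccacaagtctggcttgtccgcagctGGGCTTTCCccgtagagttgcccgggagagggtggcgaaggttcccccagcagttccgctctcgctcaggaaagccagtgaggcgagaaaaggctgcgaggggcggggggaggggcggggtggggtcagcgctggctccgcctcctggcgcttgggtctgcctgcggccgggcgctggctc
TMPRSS3, chr21:42389150-42389399, minus strand: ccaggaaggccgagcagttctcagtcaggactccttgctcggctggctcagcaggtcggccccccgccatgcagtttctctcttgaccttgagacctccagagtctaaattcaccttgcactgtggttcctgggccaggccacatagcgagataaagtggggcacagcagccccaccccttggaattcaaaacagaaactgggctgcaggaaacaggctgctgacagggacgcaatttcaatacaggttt
Both strands were searched in windows of 300 bases, which also take in the 50 bases after the start. The κB consensus matched in HAPLN3, as 3 overlapping matches on the 2 strands that begin 245 or 244 bases before the start, and 5.9% of the 35116 promoters of the table held a match. The shorter motif GGNNTTTCC matched in SEMA7A, 181 bases before the start, and 6.3% of those promoters held one. Neither motif matched in the windows of TNFAIP6 and TMPRSS3 or in the window of a second SEMA7A start site, which says only that these letters are not there. A match is a run of letters and was not measured here as a binding site. The study mapped where p50, p52, RelA and RelB bind the genome of L1236 cells, and those data were not used here.

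All values are log2 values from RMA, which were deposited by the authors and understate large differences. The array medians were 6.94 to 6.99 in experiment 1 and 7.39 to 7.51 in experiment 2, so levels were not compared across experiments. The mean correlation of an array with its own arm lay between 0.986 and 0.997. The lowest belonged to the p52/RelB KD array of sequence 2 in replicate 3, which also had the highest median. The p52/RelB KD values of the members are therefore also given without that array. The 6 measured B cell marker clusters had list means of 7.90 to 8.03 in p50/RelA KD and 7.87 to 8.08 in control 1, and of 7.95 to 8.23 in p52/RelB KD and 8.07 to 8.20 in control 2, and 1 of the 6 averaged below 6 in every arm. The 7 Hodgkin cell markers had list means of 9.88 to 9.99 in p50/RelA KD and 10.07 to 10.25 in control 1, and of 10.00 to 10.09 in p52/RelB KD and 10.12 to 10.29 in control 2, with none averaging below 6. The mean over this list was thus lower in each KD without overlap, but its genes did not move alike. Averages were lower than control for 7 of the 7 in p50/RelA KD, where TNFRSF8 was at 9.20 and 9.21 in control 1 and IRF4 at 12.41 in both arms, and for 5 of the 7 in p52/RelB KD, where CCL17 was at 9.42 and 9.29 in control 2 and CD274 at 11.29 and 11.25. The chemokine gene CCL22, first by the smaller fall among the clusters called lower in both KDs, had the widest gaps, with 9.76 in p50/RelA KD and 10.51 in control 1, and 9.79 in p52/RelB KD and 10.65 in control 2. Without CCL22, left out after its values were seen, the list means were 9.91 to 9.99 in p50/RelA KD and 10.04 to 10.17 in control 1, and overlapped at 10.04 to 10.11 in p52/RelB KD and 10.08 to 10.19 in control 2. The part of these genes in the members' falls was not tested. The 7 T and NK cell markers had list means of 5.42 to 5.62 in p50/RelA KD and 5.39 to 5.63 in control 1, and of 6.06 to 6.55 in p52/RelB KD and 6.05 to 6.19 in control 2. Of these 7, 5 averaged below 6 in both arms of experiment 1 and 2 in both arms of experiment 2, and the list means of KD and control arms overlapped in both experiments. Higher than control on average were 4 of the 7 in p50/RelA KD and 6 of the 7 in p52/RelB KD. So were 5 of 6 myeloid markers in each KD. Of 10 fibroblast, endothelial and epithelial clusters, 3 were higher in p50/RelA KD and 8 in p52/RelB KD. The means of these 2 lists overlapped between KD and control too.

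The targeted mRNAs fell to different extents. NFKB1 averaged 9.28 in p50/RelA KD and 11.19 in control 1, and RELA averaged 8.46 in p50/RelA KD and 9.85 in control 1. NFKB2 averaged 8.95 in p52/RelB KD and 10.29 in control 2, and RELB averaged 8.78 in p52/RelB KD and 9.07 in control 2. NFKB2, which was not a target in experiment 1, also fell by 0.19 ± 0.04 there (SE, adjusted p = 0.0422, limma), and in p52/RelB KD the mRNA of REL, which no siRNA targeted, fell by 0.57 ± 0.07 (limma, adjusted p = 0.000308). NFKB1 was higher by 0.15 ± 0.04 in p52/RelB KD (adjusted p = 0.0359, limma).

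**Figure D1:**
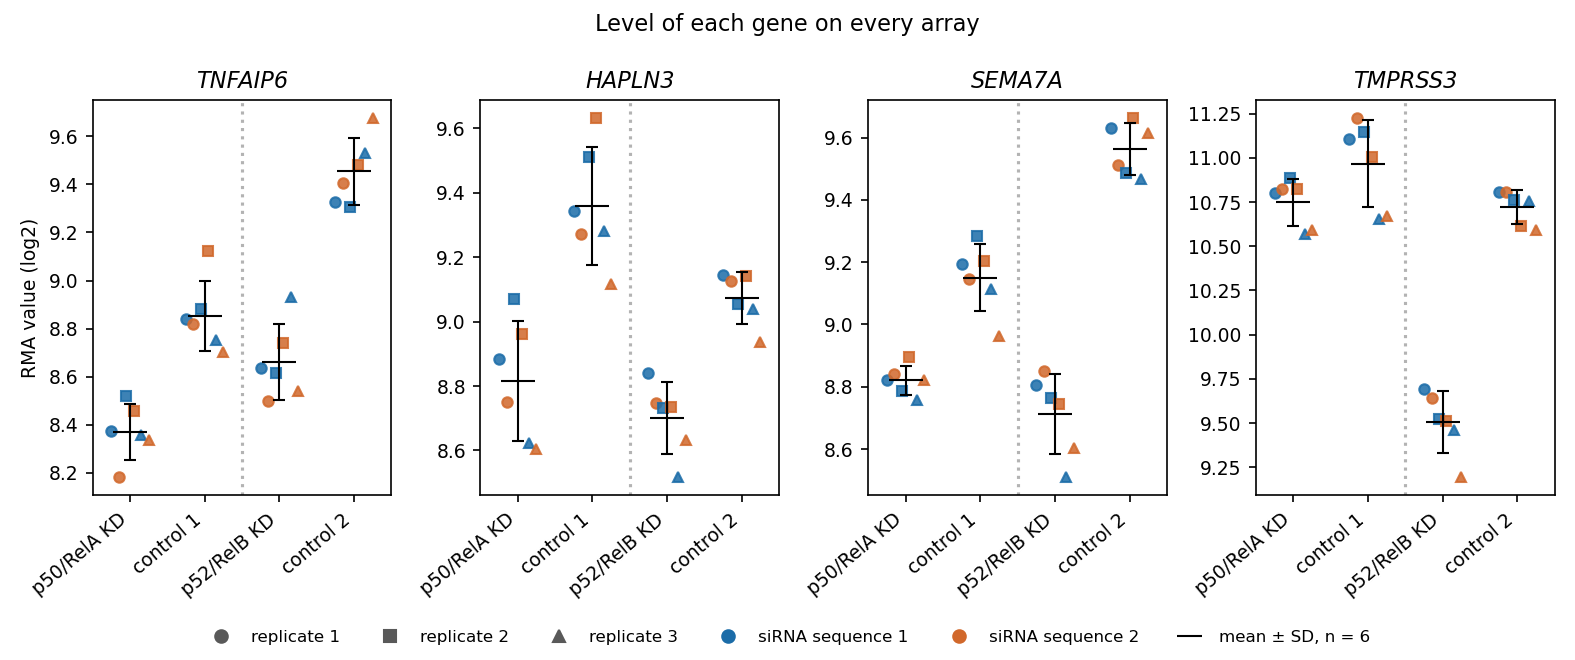
RMA value (log2) of each gene on all 24 arrays, with p50/RelA KD left of control 1 and p52/RelB KD left of control 2. Symbols stand for the replicate, colours for the siRNA sequence, and the black marks for the mean ± SD of 6 arrays. The KD arm lies wholly below its control arm in every pair except TMPRSS3 in experiment 1.

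The secreted hyaluronan-binding protein gene TNFAIP6 was measured at 8.18 at the lowest, 8.37 at the median and 8.52 at the highest in p50/RelA KD, against 8.70, 8.83 and 9.12 in control 1. Across p52/RelB KD arrays the lowest, median and highest values were 8.50, 8.62 and 8.93, against 9.31, 9.44 and 9.68 in control 2. Neither pair of arms overlapped, and the lowest p50/RelA KD array was sequence 2 of replicate 1. The KD minus control difference was -0.48 ± 0.05 in p50/RelA KD (SE, n = 6 per arm), or 71.6% of the control level, and -0.79 ± 0.07 in p52/RelB KD, or 57.7%. By replicate it was -0.55, -0.51 and -0.38 in p50/RelA KD and -0.80, -0.72 and -0.87 in p52/RelB KD. The gene was thus lower than control in each replicate of both experiments. The p52/RelB KD difference was -0.74 ± 0.05 without the array that stood apart. On that array TNFAIP6 differed from the control mean of its replicate by -1.06, the widest gap among the 6.

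HAPLN3, the link protein gene, had a lowest value of 8.61, a median of 8.82 and a highest value of 9.07 in p50/RelA KD, against 9.12, 9.31 and 9.63 in control 1. The same values in p52/RelB KD were 8.52, 8.73 and 8.84, against 8.94, 9.09 and 9.14 in control 2. The arms did not overlap, though the gaps between the highest KD array and the lowest control array were narrow at 0.05 in experiment 1 and 0.10 in experiment 2. In experiment 1 both arms moved with the replicate, with replicate 2 highest and replicate 3 lowest on average in KD and control alike. The difference was -0.54 ± 0.04 in p50/RelA KD, or 68.6% of control, and -0.37 ± 0.04 in p52/RelB KD, or 77.2%. Replicates spread little, at -0.49, -0.56 and -0.58 in p50/RelA KD and -0.34, -0.36 and -0.41 in p52/RelB KD. HAPLN3 was the only member whose fall was the smaller in p52/RelB KD, where the difference was -0.38 ± 0.04 without the array that stood apart.

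SEMA7A, the membrane semaphorin gene, ranged in p50/RelA KD between 8.76 and 8.89 with a median of 8.82, against 8.96 to 9.28 with a median of 9.17 in control 1. In p52/RelB KD it ranged between 8.51 and 8.85 with a median of 8.75, against 9.47 to 9.66 with a median of 9.56 in control 2. The arms were 0.07 apart in experiment 1 and 0.62 apart in experiment 2. The difference was -0.33 ± 0.04 in p50/RelA KD, or 79.6% of control, and -0.85 ± 0.05 in p52/RelB KD, or 55.5%. It was -0.34, -0.40 and -0.25 over the replicates of p50/RelA KD, and -0.74, -0.82 and -0.99 over those of p52/RelB KD. No replicate went against the others in sign. Without the array that stood apart the p52/RelB KD difference was -0.85 ± 0.05. In p50/RelA KD the difference was -0.32 without replicate 1 (adjusted p = 0.0974, limma) and -0.29 without replicate 2 (adjusted p = 0.0599, limma), past the threshold in neither. Over all clusters, 16 and 25 were called lower in those fits, against 140 with all arrays.

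TMPRSS3, the membrane protease gene, had the most unequal falls. In p50/RelA KD its lowest, median and highest values were 10.57, 10.81 and 10.89, against 10.66, 11.06 and 11.23 in control 1. They were 9.19, 9.52 and 9.69 in p52/RelB KD, against 10.59, 10.76 and 10.81 in control 2. The arms of experiment 2 were 0.90 apart, whereas those of experiment 1 overlapped, because both control arrays of replicate 3 lay below the KD arrays of replicates 1 and 2. The difference was -0.22 ± 0.05 in p50/RelA KD, or 85.9% of control, with -0.35, -0.22 and -0.08 over the replicates. In p52/RelB KD it was -1.22 ± 0.06, or 43.0% of control, with -1.14, -1.17 and -1.35 over the replicates and -1.17 ± 0.04 without the array that stood apart. The call of TMPRSS3 in p50/RelA KD, at an adjusted p of 0.0468 (limma), was lost in 10 of the 13 alternatives tried, with adjusted p between 0.0287 and 1.00 over them. Leaving out replicate 1, 2 or 3 gave -0.15, -0.22 and -0.29, with adjusted p of 0.498, 0.247 and 0.0657. Over all clusters, 16, 25 and 44 were called lower in those fits, against 140 with all arrays. These p-values are given as a description of the chosen fall.

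**Figure D2:**
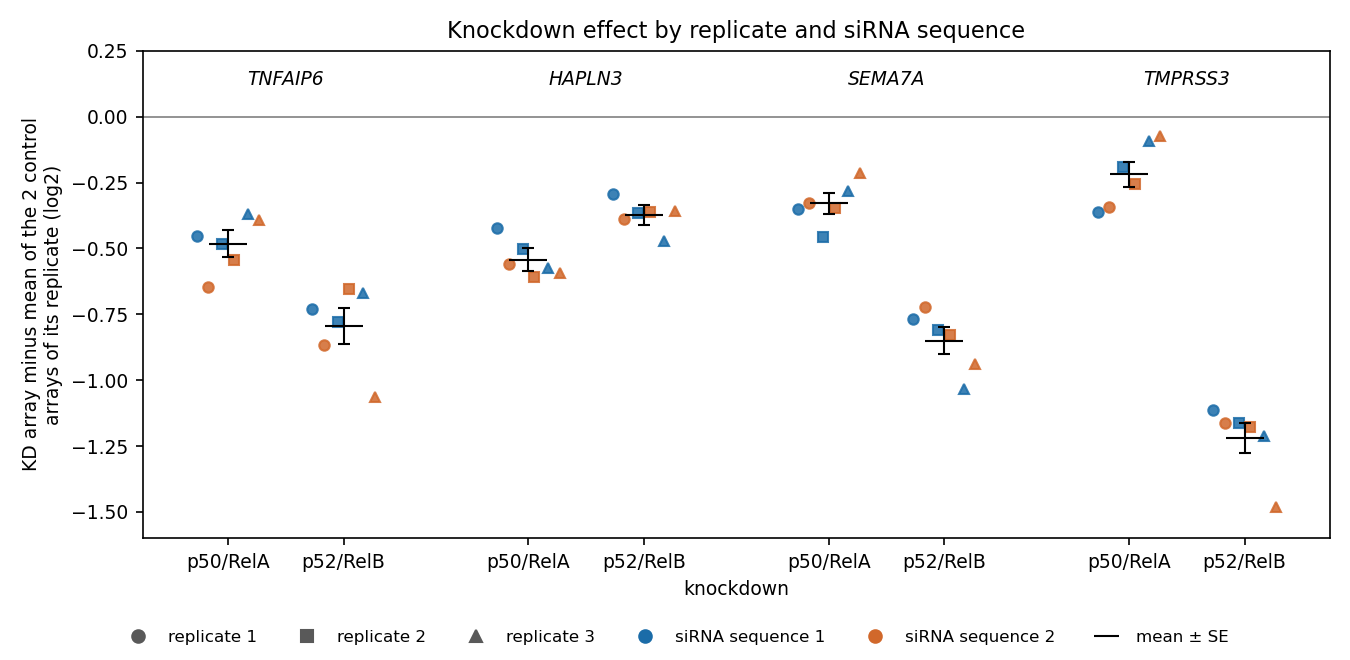
Each point is a KD array minus the mean of the 2 control arrays of its replicate (log2), by gene and knockdown, with replicates as symbols and siRNA sequences as colours. Black marks give the mean ± SE of the limma fit, from -0.22 for TMPRSS3 in p50/RelA KD to -1.22 for TMPRSS3 in p52/RelB KD, and every point lies below 0.

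In all, each gene was below the control mean of its own replicate on 6 of 6 KD arrays in both experiments. Calls required a difference of 10% or more and an adjusted p under 0.05. All 4 members were called lower in p50/RelA KD, where 0.876% of the 15989 clusters tested were called lower and 0.263% higher. All 4 were called lower in p52/RelB KD too, where 6% of 17562 were called lower and 4.04% higher. Every KD array lay below every control array for 3 of the 4 members in experiment 1, against 0.776% of clusters, and for 4 of 4 in experiment 2, against 3.26%. The members were selected on these same contrasts, and nothing is read from the counts. Over all clusters tested the median difference was 0.0005 in p50/RelA KD and 0.02 in p52/RelB KD.

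Calls of a fall in both KDs were made for 82 clusters, which is 0.514% of the 15962 tested in both, and 69 genes were named among them. Ordered by the smaller of the 2 falls, TNFAIP6 stood at position 2 of 82, HAPLN3 at 11, SEMA7A at 16 and TMPRSS3 at 47. In p50/RelA KD alone the members took positions 10, 7, 46 and 163 from the most negative difference among 15989 clusters, in the order TNFAIP6, HAPLN3, SEMA7A and TMPRSS3. In p52/RelB KD the same genes took positions 23, 232, 18 and 3 among 17562. The choice of genes used the values behind these positions, which are given as a description.

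**Figure D3:**
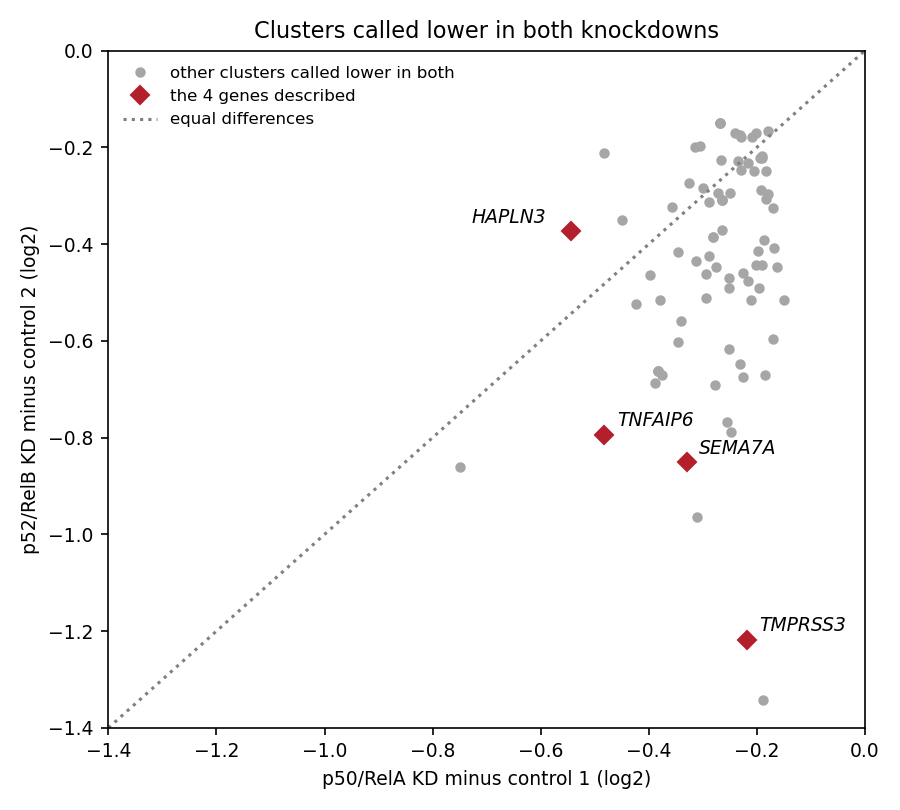
The 82 clusters called lower in both knockdowns, plotted as p50/RelA KD minus control 1 (log2, horizontal) against p52/RelB KD minus control 2 (log2, vertical), with the 4 genes as diamonds. HAPLN3 lies above the dotted line of equal differences, and TNFAIP6, SEMA7A and TMPRSS3 lie below it, TMPRSS3 farthest at -0.22 and -1.22.

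Whether the 2 KDs lowered a member to different extents was fitted as an interaction. The choice of genes required a fall in both and set no size for the difference. The interaction nevertheless subtracts the 2 falls used for that choice, on the same arrays. Its p-values are therefore not independent of the choice. The difference (p52/RelB KD effect minus p50/RelA KD effect) was -0.999 ± 0.075 for TMPRSS3 (SE, adjusted p = 3.9e-08, limma). For SEMA7A it was -0.52 ± 0.07 (adjusted p = 6.1e-05, limma). Both genes thus fell further in p52/RelB KD. In fits on the sequence 2 arrays alone neither was called, with -0.9997 for TMPRSS3 (adjusted p = 0.0979, limma) and -0.61 for SEMA7A (adjusted p = 0.255, limma). For TNFAIP6 the difference was -0.31 ± 0.09 (adjusted p = 0.0422, limma), in the same direction, but this call was lost in 8 of 12 alternatives, with adjusted p between 0.0208 and 0.616 over them. Without the replicate block its adjusted p was 0.175. It was lost when any 1 replicate was left out, with differences of -0.37 to -0.22. For HAPLN3 the difference was 0.17 ± 0.06 and was not called (adjusted p = 0.0936, limma), with an unadjusted 95% interval of 0.05 to 0.29, so neither a like nor an unlike fall was shown. Of all 15962 clusters, 2.59% were called with a more negative effect in p52/RelB KD and 2.02% with a more positive one. No scan batch held arrays of both experiments, so any effect of the experiment on the size of a fall and that of the KD cannot be told apart.

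**Figure D4:**
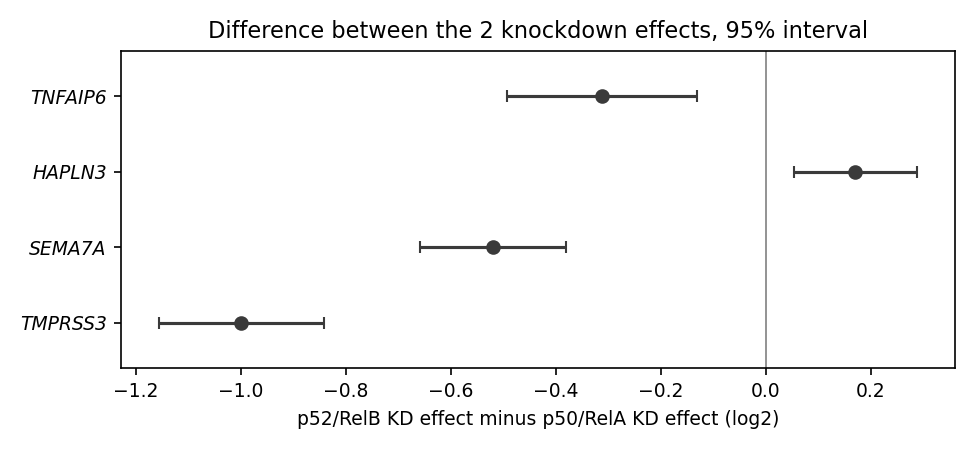
Difference between the knockdown effects (p52/RelB KD effect minus p50/RelA KD effect, log2) for each gene, as a point with its unadjusted 95% interval. TMPRSS3 at -0.999, SEMA7A at -0.52 and TNFAIP6 at -0.31 lie below 0 and HAPLN3 at 0.17 above it.

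The 2 siRNA sequences were next set against each other within each KD arm, a comparison that the choice of members, which pooled them, did not use. For TNFAIP6 sequence 1 minus sequence 2 was 0.09 ± 0.07 in p50/RelA KD (95% interval -0.06 to 0.25) and 0.13 ± 0.09 in p52/RelB KD (-0.06 to 0.33). For HAPLN3 it was 0.09 ± 0.06 in p50/RelA KD (-0.05 to 0.22) and -0.01 ± 0.06 in p52/RelB KD (-0.14 to 0.12). For SEMA7A it was -0.06 ± 0.05 in p50/RelA KD (-0.19 to 0.06) and -0.04 ± 0.08 in p52/RelB KD (-0.21 to 0.13). For TMPRSS3 it was 0.01 ± 0.07 in p50/RelA KD (-0.15 to 0.17) and 0.11 ± 0.07 in p52/RelB KD (-0.05 to 0.27). None was called, with adjusted p of 0.999 for each in p50/RelA KD and 0.520 to 0.954 in p52/RelB KD (limma), and the widest of these intervals allow a difference of up to 0.33. Calls between sequences were made for 0% of clusters in both KD arms by limma. There 562 clusters (3.51%) had an unadjusted p below 0.05 in p50/RelA KD and 1673 (9.53%) in p52/RelB KD. The shares were 2.38% in control 1 and 0.996% in control 2. The largest share was thus that of p52/RelB KD, which holds the array that stood apart, and it was not recomputed without that array. Each fit took 1 residual SD for both arms, so spread within an arm and a difference between sequences cannot be told apart in these shares. Without replicate 3, which held that array, the p52/RelB KD values were 0.005 for TNFAIP6, 0.05 for HAPLN3, -0.01 for SEMA7A and 0.03 for TMPRSS3. In the control arms, sequence 1 minus sequence 2 lay between -0.05 and 0.09 for the members in control 1 and between -0.13 and 0.10 in control 2.

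By root mean square distance over the 12 differences of KD array from control mean, HEY1, a Notch-responsive repressor, was nearest to TNFAIP6 at 0.13, with -0.39 ± 0.04 in p50/RelA KD and -0.69 ± 0.06 in p52/RelB KD. SEMA7A came next at 0.18 and the potassium channel gene KCNN1 after it at 0.20, with -0.26 ± 0.05 and -0.77 ± 0.03 in the same KDs. Nearest to HAPLN3 were TNFAIP3 at 0.17, PDGFRL, a gene related to PDGF receptors, at 0.17 (-0.35 ± 0.05 in p50/RelA KD and -0.42 ± 0.04 in p52/RelB KD) and EBI3, a cytokine subunit gene, at 0.18 (-0.48 ± 0.04 and -0.21 ± 0.06). Nearest to SEMA7A were PHF19, which encodes a Polycomb-associated protein, at 0.12 (-0.31 ± 0.05 and -0.96 ± 0.05), KCNN1 at 0.15, and NRN1, which encodes neuritin, at 0.15 (-0.23 ± 0.09 and -0.86 ± 0.06). Nearest to TMPRSS3 was NFKB2, itself a target of the siRNAs of experiment 2, at 0.16, with -0.19 ± 0.04 in p50/RelA KD and -1.34 ± 0.04 in p52/RelB KD. HILPDA followed at 0.22 (-0.21 ± 0.12 and -1.14 ± 0.13) and PHF19 at 0.23. Each search ran over 14646 clusters, on the same differences that were used to choose the members. The distance is one of size, so clusters with like falls in both KDs come out near by construction. Between members the distance was smallest for TNFAIP6 and SEMA7A and largest for HAPLN3 and TMPRSS3 at 0.66, where the 12 points share control arrays within a replicate.

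Other genes of the members' pathways were taken from lists. Of 30 clusters for other genes of the hyaluronan matrix, 17 were tested in p50/RelA KD. None was called by limma, 3 had an unadjusted p below 0.05, and their median difference was -0.01. Of 20 tested in p52/RelB KD, 1 was called lower and 2 higher, with a median of 0.06, where 6% of all clusters were called lower and 4.04% higher. Counts this small are given as a description, and nothing about the pathway is read from them or from those of the lists that follow. UGDH, whose enzyme makes the UDP-glucuronic acid used for hyaluronan, was lower by a difference of -0.22 ± 0.05 (adjusted p = 0.0185). CEMIP2, which encodes a membrane hyaluronan-degrading protein, was higher by 0.27 ± 0.05 (adjusted p = 0.00545). CD44, the main hyaluronan receptor, was higher in p52/RelB KD by 0.22 ± 0.04 (limma, adjusted p = 0.0023), and its difference in p50/RelA KD was -0.15 ± 0.04 without a call (adjusted p = 0.0929). Its effects differed between the KDs by 0.37 ± 0.05 (adjusted p = 0.0001, limma). That is opposite in sign to the difference for TNFAIP6 and the same in sign as that for HAPLN3, 0.17 ± 0.06, which was not called. The receptor of hyaluronan HMMR had 0.14 ± 0.06 in p50/RelA KD and -0.15 ± 0.11 in p52/RelB KD, neither called, and the hyaluronan synthase gene HAS3 had -0.04 ± 0.05 and 0.10 ± 0.06.

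Among the other semaphorins, plexins and semaphorin receptors, 27 clusters were tested in p50/RelA KD. None was called by limma, 3 had an unadjusted p below 0.05, and the median was 0.01. Of 29 tested in p52/RelB KD, 2 were called lower, close to the 6% of all clusters, and none higher, with a median of -0.02. SEMA4D, a membrane semaphorin of lymphocytes, had -0.30 ± 0.05 on 1 of its clusters (adjusted p = 0.00321, limma) and -0.13 ± 0.08 on the other, which was not called. PLXNB2, a plexin, had -0.18 ± 0.04 (adjusted p = 0.00969, limma). The receptor chains of SEMA7A with a cluster of their own, PLXNC1 and ITGB1, were not called in either KD. PLXNC1 had 0.11 ± 0.04 in p50/RelA KD and -0.04 ± 0.05 in p52/RelB KD, and ITGB1 had 0.09 ± 0.05 and 0.01 ± 0.05.

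Among other membrane serine proteases, their inhibitors and the subunits of the epithelial sodium channel, which such proteases are known to cleave, 13 clusters were tested in p50/RelA KD and 17 in p52/RelB KD. In each KD 1 was called lower and none higher, with medians of -0.003 in p50/RelA KD and 0.05 in p52/RelB KD, against 0.876% of all clusters called lower in p50/RelA KD and 6% in p52/RelB KD. The 1 of 17 in p52/RelB KD is about the share over all clusters. The gene called was TMPRSS13, a protease of the same family, with -0.25 ± 0.04 in p50/RelA KD (adjusted p = 0.00417, limma) and -0.29 ± 0.04 in p52/RelB KD (adjusted p = 0.000552, limma). The difference between its KD effects was -0.04 ± 0.05 and was not called (adjusted p = 0.739, limma). Of the other genes named as TNF-induced, 1 of 4 was called lower in each KD. This was TNFAIP3, which encodes the NF-κB inhibitor A20, with -0.45 ± 0.04 in p50/RelA KD (adjusted p = 5.6e-05, limma) and -0.35 ± 0.07 in p52/RelB KD (adjusted p = 0.00839, limma). TNFAIP8 had -0.17 ± 0.04 and -0.17 ± 0.05, TNFAIP2 had -0.07 ± 0.04 and -0.11 ± 0.04, and TNFAIP1 had -0.01 ± 0.03 and 0.14 ± 0.04. None of these genes was called in either KD.

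**Figure D5:**
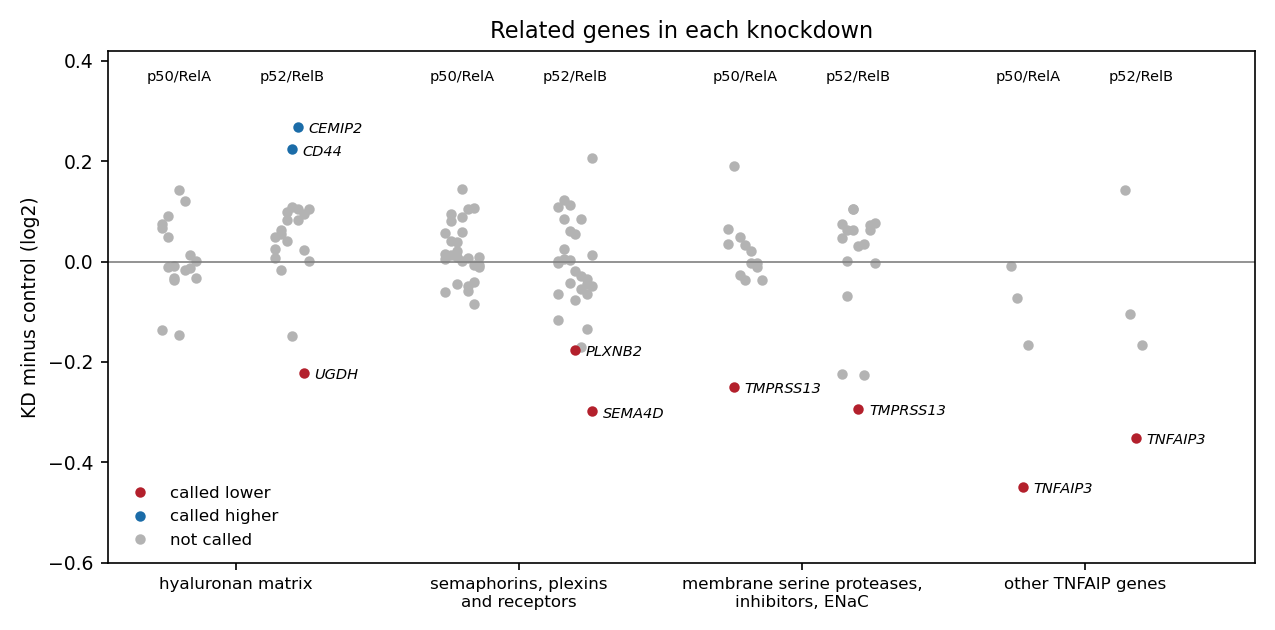
KD minus control (log2) of each tested cluster of 4 lists of related genes, in p50/RelA KD and p52/RelB KD, with called clusters in colour and named. Most points lie near 0, and TMPRSS13 and TNFAIP3 were called lower in both knockdowns.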

How the data were processed

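RNA of L1236 cells was hybridised to 24 Affymetrix Human Gene 1.0 ST arrays. The authors deposited log2 values, which per the labels came from RMA (background correction, quantile normalization and probe summary), in a version not given in the sources used here. The methods name an adjustment for covariates without listing them. Because replicates differed in the values, it was taken to be absent from them. RMA gives no call of detection. Precision is limited by the number of arrays.

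The platform annotation gave 1 symbol for 19460 clusters and several for 1754. Names were taken from clusters with 1 symbol and brought up to date through NCBI genes of GRCh38.p14. Clusters with any symbol were tested across all genes, after those under 6 on at least 50% of an experiment's 12 arrays had been left out. Histone genes, which the study removed, were kept. Each KD was set against its own control in limma 3.58.1 (R 4.3.3), blocked by replicate, with Benjamini-Hochberg adjustment and the thresholds of the methods. A difference of 10% is 0.14 on the log2 scale. The interaction used 1 fit over 24 arrays, blocked by replicate within experiment, and the sequences were compared with 3 arrays each. The fits were tested on simulated data, with independent noise of the same size in both arms of an experiment. Unequal spread between arms, a deviating array and correlation between the sequences of a replicate were thus not covered. The median SE was 0.0474 in experiment 1 and 0.0533 in experiment 2.

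The methods call the 3 replicates biological and give each array of a replicate an siRNA treatment of its own. Deviations of KD and control means of the same replicate correlated at 0.448, 0.193 and 0.252 (experiment 1) and 0.576, 0.272 and 0.380 (experiment 2), each above 0.1, so replicates were taken as pairs. Each replicate of experiment 1 had its own scan batch, and in experiment 2 replicates 1 and 2 shared one.

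The members and the gene lists were chosen with earlier results of these data known. Named genes were the members, list genes called in either experiment, the siRNA targets with REL, and the 3 single-symbol clusters nearest to each member. HMMR, HAS3, PLXNC1, ITGB1, TNFAIP1, TNFAIP2 and TNFAIP8 fall outside that rule and were chosen after their values were seen. Alternatives were no block, averaged sequences, each sequence alone, no filter on low values, further quantile normalization, the scan batch as a block, each replicate and each of 2 arrays left out, and the methods' t-test.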

Additional observations from a re-analysis of the deposited data

Results flagged for a closer look

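The effects of the 2 KDs were called different in size for 3 of the 4 genes by the interaction in limma. Over all 15962 clusters, 2.59% were called more negative in p52/RelB KD and 2.02% more positive. The falls used to choose the genes enter this difference, and in it the experiment and the KD cannot be told apart. The p52/RelB KD effect minus the p50/RelA KD effect was -0.999 for TMPRSS3, -0.521 for SEMA7A and -0.312 for TNFAIP6 on the log2 scale, with adjusted p of 3.9e-08, 6.1e-05 and 0.0422. All 3 were lower on 6 of 6 KD arrays in each experiment. The value for TNFAIP6 failed the threshold when any 1 replicate was left out, with adjusted p of 0.215, 0.119 and 0.209 without replicates 1, 2 and 3. Among the 16 sets of 6 arrays (4 genes in 4 arms), none had an array far enough from the others to be singled out.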

How the results depend on the processing

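All 152 recomputed KD and interaction values of the 4 genes kept their sign. The KD values among them are the falls used to choose the genes, which lay below 0 on every KD array. Several alternatives, such as no replicate block or averaged sequences, change the SE and leave the difference as it was. Nothing is read from the kept signs. The interaction of TNFAIP6 kept -0.31 and lost its call with no replicate block (adjusted p = 0.175, limma), with averaged sequences (0.0847) and with no filter on low values (0.0611). It was also lost with sequence 1 arrays alone (-0.25, adjusted p = 0.0784), with sequence 2 arrays alone (-0.37, adjusted p = 0.616) and without 1 replicate (-0.37 to -0.22). With sequence 2 arrays alone the interactions of SEMA7A (-0.61, adjusted p = 0.255) and TMPRSS3 (-0.9997, adjusted p = 0.0979) were not called, in fits on fewer arrays. Restricted to sequence 1, SEMA7A in p50/RelA KD was -0.41 and TNFAIP6 in p52/RelB KD was -0.66. Restricted to sequence 2, they were -0.25 and -0.93.

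The number of the 4 genes called lower in p50/RelA KD was 0 with either sequence alone, 2 without replicate 1, 2 without replicate 2 and 2 by the methods' t-test on deposited values. Of all 15989 clusters, 5 and 3 were called lower with sequence 1 or 2 alone. Without replicate 1 or 2 and by that t-test, 16, 25 and 31 were. In p52/RelB KD the number of the 4 genes was 0 with sequence 2 alone and 4 in the other 12 alternatives. Of all 17562 clusters, 1 was called lower there with sequence 2 alone. HAPLN3 in p50/RelA KD was called in 10 of 13 alternatives, SEMA7A in 9, TNFAIP6 in 11 and TMPRSS3 in 3. Sequence 1 minus sequence 2 changed sign when 1 replicate was left out, with -0.020 to 0.023 for TMPRSS3 in p50/RelA KD and -0.058 to 0.046 for HAPLN3 in p52/RelB KD, none of them called. For TNFAIP6 in p52/RelB KD it kept its sign but ran from 0.005 without replicate 3 to 0.26 without replicate 2, neither of them called.

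Clusters called lower in p50/RelA KD numbered 140, and 58 with no replicate block, 36 with averaged sequences, 5 and 3 with sequence 1 or 2 alone, 16 to 44 without 1 replicate and 31 by the t-test on deposited values. Clusters called higher there numbered 42, and 10, 6, 1, 0, 0 to 8 and 3 in the same order, 27 with no filter, 93 after quantile normalization, 87 without the sequence 2 array of control 1 in replicate 2 and 101 by the t-test on values adjusted for replicate. In p52/RelB KD 1054 were called lower, and 583 with no replicate block, 468 with averaged sequences, 674 and 1 with sequence 1 or 2 alone, 319 to 1156 without 1 replicate and 463 by the t-test on deposited values. There 710 were called higher, and 379, 241, 0 with sequence 2 alone, 173 to 1094 without 1 replicate, 327 by that t-test and 1237 without the p52/RelB KD array of sequence 2 in replicate 3.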
